A study of Mus musculus with 22 samples.

Results

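The step from the common myeloid progenitor (CMP) to the granulocyte-monocyte progenitor (GMP) was compared between mice lacking Arid1a in blood cells and their controls. The 12 RNA-seq libraries of the 2 populations were taken, of 22 in the series. They came from 3 control (WT) and 3 knockout (KO) mice, and each mouse gave 1 CMP and 1 GMP library, so the step could be taken within each animal. ARID1A is a DNA-binding subunit of the SWI/SNF chromatin remodelling complex, and the study asked how its loss alters blood formation. KO mice were Arid1a f/f;Mx1-Cre+ and WT mice were Arid1a f/f;Mx1-Cre-, so both carried the loxP-flanked allele, and both had received poly(I:C). Mx1-Cre is switched on by interferon, which poly(I:C) induces, and the Mx1 promoter also acts outside blood cells. The marrow was taken 4 weeks after poly(I:C), and both populations were sorted from Lin-Kit+Sca1- cells, CMP as CD34+ with low FcγRII/III and GMP as CD34+ with high FcγRII/III.

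A CMP can give rise to granulocytes and monocytes through the GMP, or to red cells and platelets through the megakaryocyte-erythroid progenitor. On entry into the GMP stage cells normally switch on the proteins of the primary neutrophil granule, such as myeloperoxidase, elastase and cathepsin G, under factors that include C/EBPα, PU.1 and GFI1. At the same time they turn down the erythroid and megakaryocytic programme led by GATA1, GATA2 and KLF1, along with genes of stem and lymphoid progenitors. The GMP gate of mouse marrow also holds progenitors of eosinophils, basophils and mast cells.

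Levels are given as counts scaled to the total of the library (CPM) and, where genes are summed or compared with each other, as the same divided by transcript length (FPKM). The step of a gene is its log2 level in GMP minus that in CMP. The difference of steps is the KO step minus the WT step, so a positive value means that the gene gained more, or lost less, in KO mice. It is given with its standard error and a false discovery rate (FDR, Benjamini-Hochberg adjusted p of edgeR's quasi-likelihood test over 18034 genes). A gene was called altered at an FDR under 0.1 with an absolute difference above 0.5 and a mean above 1 FPKM. The mean was over all 12 libraries, so a gene high in 1 group could pass this limit through that group alone. This was so for Itgb2l in KO GMP and for Alas2, Meg3, Scd1 and Trim10 in KO CMP, at means of 1.09 to 1.23 FPKM. The libraries held 42575900 to 60789922 estimated gene counts.

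The step was steeper in KO mice. At an FDR under 0.1 the steps differed for 3618 genes, 20.1% of those tested, of which 1750 (9.7%) had the higher step in KO mice and 1868 (10.4%) the lower. With the mouse pairs as a replicate block, 5403 genes passed and the balance turned, 2760 having the higher step in KO mice and 2643 the lower. Of the 3618, 2042 genes (11.3% of those tested) were altered, 936 (5.19%) with the KO step higher and 1106 (6.13%) with it lower. The steps of the 3 KO mice all lay beyond those of the 3 WT mice for 1984 of the altered genes, where 5867 of all genes (32.5%) were so placed. The altered genes were chosen on the difference of these steps, so this placing was favoured by the choice and is no added test. The typical SE of a difference was 0.12, and the median absolute difference of the altered genes was 0.89.

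Most altered genes moved further in the direction in which the normal step went, or moved in KO mice alone. WT mice gained 1930 genes (10.7%) and lost 2668 (14.8%) at an FDR under 0.1 and an absolute step above 0.5, and KO mice gained 2763 (15.3%) and lost 4045 (22.4%). Among the altered genes, 559 normal gains were increased in KO mice and 657 normal losses were increased. A further 277 genes were gained and 331 were lost in KO mice only. Against these 1824 genes stood 150 whose normal step was lost, blunted or reversed. They held 38 gains that were lost, 28 that were blunted and 22 that were reversed, and 41 losses that were lost, 16 that were blunted and 5 that were reversed. For 68 altered genes neither step was called. Of the normal gains 1283 (66.5%) and of the normal losses 1949 (73.1%) were not called altered. The WT step is part of the difference, so these class counts describe the genes and carry no test.

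The same was seen without the classes. Over the 12615 genes above 1 FPKM, the median absolute step was 0.29, 0.27 and 0.24 in WT mice 300, 305 and 309, and 0.40, 0.36 and 0.37 in KO mice 301, 304 and 308. All 3 KO mice thus lay above all 3 WT mice, and the difference in means, 0.38 against 0.27, had p = 0.1 in a two-sided exact permutation test (n = 3 mice per genotype), which is the smallest p that 3 against 3 can give. The KO step was the larger in size for 9164 of these genes (72.6%). When gain or loss was taken from the mean of both steps, which treats the genotypes alike, 743 altered genes had a larger gain and 880 a larger loss in KO mice, against 50 with a smaller gain and 28 with a smaller loss.

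**Figure D1:**
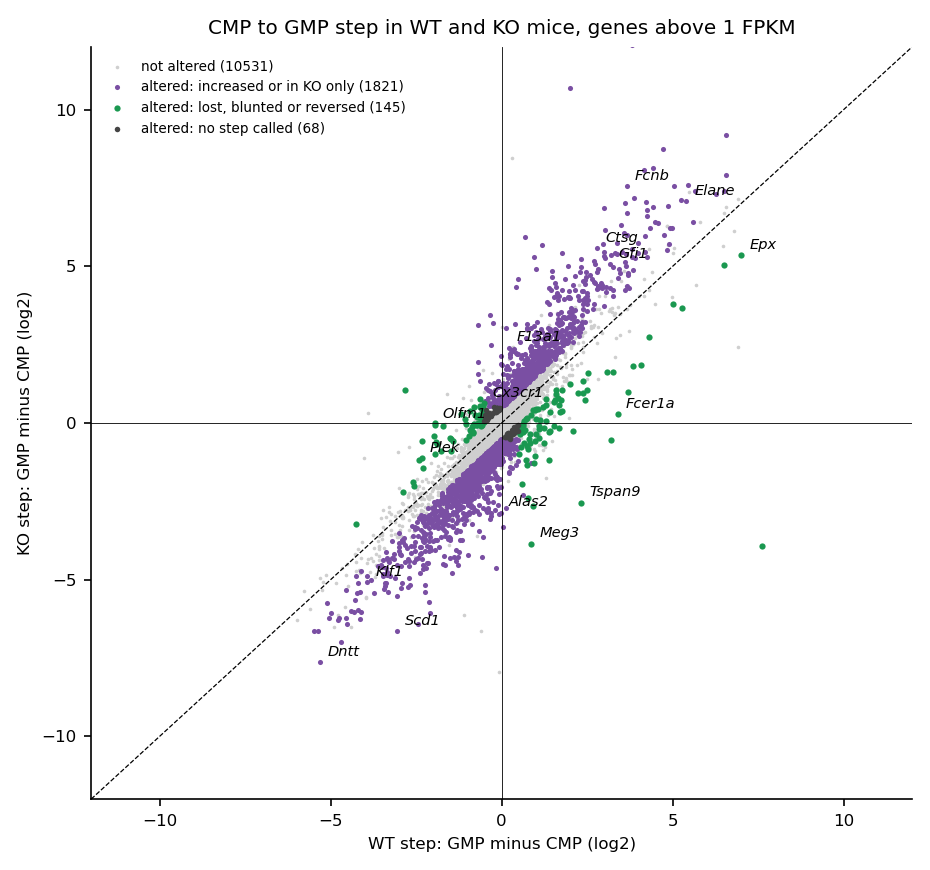
WT step (horizontal) and KO step (vertical), both GMP minus CMP in log2, for each gene above 1 FPKM apart from immunoglobulin and T cell receptor segments. Most coloured genes lie further from 0 on the KO axis than on the WT axis, beyond the dashed line of equal steps. 1 gene lies outside the axes.

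Which population carried the difference depended on the genes. KO and WT mice were also compared within each population, where 4030 genes (23.4%) passed an FDR of 0.1 in CMP and 5550 (33.9%) in GMP. The increased gains held 186 genes called in both populations with opposite signs, 221 called in GMP only, 78 in CMP only and 59 in both with the same sign. Their median KO minus WT differences were -0.35 in CMP and 0.61 in GMP, beside 0.0 and -0.01 over all genes tested. For the increased losses the corresponding counts were 72, 252, 174 and 120, with medians of 0.25 in CMP and -0.68 in GMP. A gene's difference of steps is in effect its KO minus WT difference in GMP less that in CMP. The classes were chosen on that difference, so the direction of the gap between the medians, and opposite signs, were favoured by the choice. These counts and medians therefore describe the genes and carry no test. Over all genes, too, more were called in GMP than in CMP.

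The sort markers and the markers of other cells that the gates can hold were read first. Fcgr3, which encodes the FcγRIII that separates the 2 gates, stood at 9.34, 6.80 and 10.9 CPM in CMP of WT mice 300, 305 and 309 and at 3.59, 4.21 and 3.68 CPM in CMP of KO mice 301, 304 and 308. In GMP it stood at 250.1, 225.5 and 239.8 CPM in WT and 235.7, 278.8 and 215.2 CPM in KO mice. The CMP groups did not overlap and the GMP groups did, and the difference of steps was 1.24 ± 0.14 (FDR = 2.91e-04). The part that this lower Fcgr3 of KO CMP had in the results below was not tested. Cd34 (difference -0.28 ± 0.14, FDR = 0.247) and Kit (0.09 ± 0.10, FDR = 0.65) were not called, although Cd34 passed with the mouse pairs as a replicate block (FDR = 0.0707), with no low-count filter (FDR = 0.0985) and without KO mouse 301 (-0.46, FDR = 0.0162). The level of Cd34 was lower in KO GMP (-0.47, FDR = 0.0189) and not called different in CMP (-0.20, FDR = 0.105). The study reports less CD34 on the surface of KO CMP and GMP, and more megakaryocyte-erythroid progenitors. The part of either in the results below was not tested. Arid1a itself was at 395.8 to 418.6 CPM in WT CMP and 339.3 to 373.6 CPM in KO CMP, and at 326.5 to 435.6 and 261.0 to 303.3 CPM in GMP. These are counts over the whole gene, of which the deletion takes a single exon, so they do not check the genotype. The difference of its steps was -0.17 ± 0.14 (FDR = 0.529), or FDR = 0.092 with that block.

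Summed marker levels moved with the genotype in several cases. For 7 eosinophil markers the sum in GMP was 3241 to 7631 FPKM in WT and 1012 to 2122 FPKM in KO mice. Most of it was Prg2, at 2570 to 6050 FPKM in WT and 745 to 1570 FPKM in KO GMP. Siglecf was higher in KO GMP, at 36.3 to 39.7 against 24.8 to 35.9 FPKM, and the other members were lower. For 7 basophil and mast cell markers the sum in GMP was 593.7 to 990.7 FPKM in WT and 116.1 to 154.5 FPKM in KO mice. The sum of 8 monocyte markers in CMP was 175.2 to 362.7 FPKM in WT and 101.2 to 155.0 FPKM in KO mice. In GMP it was 1058 to 1229 FPKM in WT and 832.6 to 972.9 FPKM in KO mice. The 8 erythroid markers summed to 607.4 to 658.7 FPKM in WT CMP and to 758.4 to 839.3 FPKM in KO CMP. In none of these sums did the genotypes overlap. The monocyte markers did not move together. Most of their sum in GMP was Ly6c2, at 845 to 978 FPKM in WT and 682 to 804 FPKM in KO mice. F13a1 and Ly86 were also lower in KO GMP, and Csf1r and Ccr2 overlapped. Adgre1 was higher in KO GMP, at 28.2 to 37.1 against 2.77 to 3.55 FPKM, as were Mpeg1 and Cx3cr1. T and NK cell markers stayed at or below 3.18 FPKM in every library, and no marker list had a member at 0 in all 12 libraries. In bulk libraries fewer cells of a type and less RNA per cell cannot be told apart, and this holds for every result that follows.

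**Figure D2:**
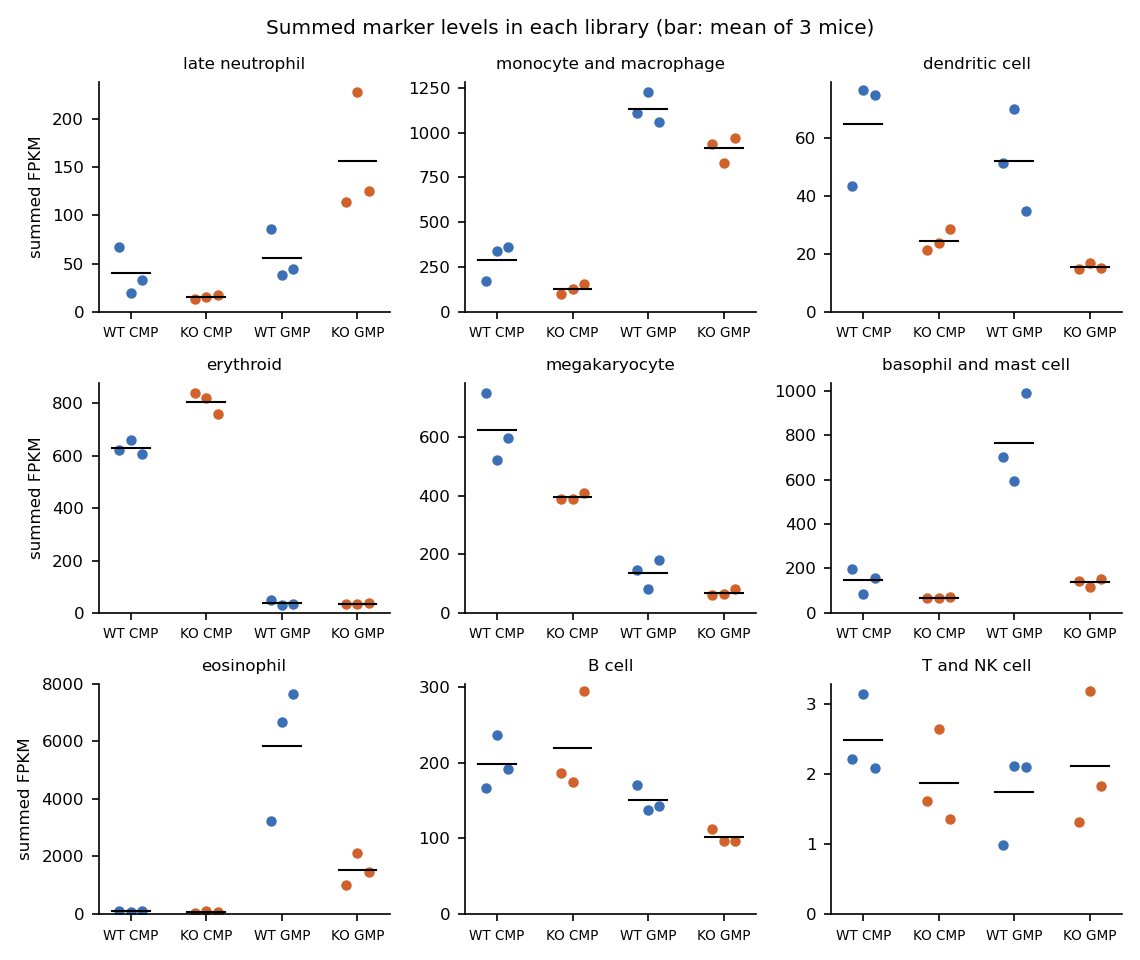
Summed FPKM of the markers of 9 cell types in each library, with 3 mice per group (points) and their mean (bar). Eosinophil sums were lower in KO GMP, and basophil, monocyte, dendritic and megakaryocyte sums were lower in both KO CMP and KO GMP. Not every member moved with its sum. The megakaryocyte sum was mostly Pf4 and Itga2b, whereas Gp9 was higher in KO CMP (34.6 to 39.9 against 19.8 to 27.8 FPKM) and in KO GMP. Gp1ba was higher in KO CMP.

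Genes listed for the primary neutrophil granule gained more in KO mice. Of 16 tested, 13 were altered with the KO step higher and none with it lower, all of them normal gains that were increased. The median difference over the list was 1.28, beside -0.02 over all genes tested, with a median KO minus WT difference of -0.55 in CMP and 0.65 in GMP. Ctsg encodes cathepsin G, a serine protease of the granule, and lies on chromosome 14 at 56099881 to 56102574 (GRCm38, minus strand). It stood at 316.3, 345.3 and 373.8 CPM in WT CMP and 66.4, 90.3 and 65.2 CPM in KO CMP, and at 2697, 2240 and 2302 CPM in WT GMP and 3594, 3737 and 3255 CPM in KO GMP. The KO mice were thus all below the WT mice before the step and all above them after it. The WT step of 2.80 became 5.59, a difference of 2.79 ± 0.16 (FDR = 8.27e-06).

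Elane, which encodes neutrophil elastase, and Mpo, which encodes myeloperoxidase, followed the same course. Elane rose from 84.2, 94.0 and 101.6 CPM to 4484, 3776 and 3575 CPM in WT mice and from 36.7, 78.4 and 41.8 CPM to 6355, 7653 and 6033 CPM in KO mice, with a difference of 1.67 ± 0.22 (FDR = 6.41e-04). Mpo was at 3394 to 4216 CPM in WT CMP and 1239 to 1947 CPM in KO CMP, and reached 24220 to 27230 CPM in WT and 30290 to 33770 CPM in KO GMP. Its difference of 1.73 ± 0.21 passed edgeR's test (FDR = 3.76e-04) but not that of DESeq2 (1.75, adjusted p = 0.543). For Prtn3, the proteinase 3 gene, the genotypes did not pass in CMP (-0.46, FDR = 0.138) and differed in GMP (0.82, FDR = 3.52e-04). The list was not confined to proteins of this granule. It also held Hp, which encodes the haemoglobin-binding haptoglobin, and Mgst1, a microsomal glutathione transferase. Hp reached 186.1 to 229.5 CPM in WT GMP and 928.7 to 1243 CPM in KO GMP. Mgst1 had a WT step of 2.0 and a KO step of 3.98.

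The promoters of Ctsg and Elane are shown because both genes moved together and because their windows hold a PU.1 core. The sequences are RefSeq's on GRCm38.p6, in a window of 300 bases that runs from upstream of the annotated start to just past it, read 5′ to 3′ on the gene's strand. Capitals mark matches, on either strand, to the core motifs of 5 factor families. The PU.1 motif searched was GAGGAA and the C/EBP motif TTGCNNAA. The RUNX motif was TGTGGT. The GATA motif was AGATAA and the KLF motif CCNCACCC. Ctsg lies in the window chr14:56102525-56102824 and Elane in chr10:79886062-79886361.
Ctsg: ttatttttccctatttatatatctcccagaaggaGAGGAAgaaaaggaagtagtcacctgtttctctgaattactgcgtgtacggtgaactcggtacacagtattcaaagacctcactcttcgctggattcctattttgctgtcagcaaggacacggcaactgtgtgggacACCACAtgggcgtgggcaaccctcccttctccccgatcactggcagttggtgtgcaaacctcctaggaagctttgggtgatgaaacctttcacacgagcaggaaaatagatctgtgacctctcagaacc
Elane: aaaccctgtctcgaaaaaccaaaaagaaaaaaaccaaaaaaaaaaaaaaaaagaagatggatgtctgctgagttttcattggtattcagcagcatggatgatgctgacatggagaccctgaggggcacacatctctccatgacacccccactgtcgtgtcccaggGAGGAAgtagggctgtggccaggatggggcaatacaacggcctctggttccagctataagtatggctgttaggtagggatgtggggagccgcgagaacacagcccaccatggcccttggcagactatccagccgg
The PU.1 letters begin at position -216 in Ctsg and -85 in Elane, and the RUNX letters, on the opposite strand, at -79 in Ctsg. A promoter could be matched for 11814 of the genes tested. GAGGAA was present in 27.1% of all of these, in 32.3% of the 436 increased gains and in 24.5% of the 490 increased losses. TTGCNNAA was present in 8.72% of all, 13.1% of increased gains and 7.76% of increased losses. A match of letters describes the window and shows no binding.

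Genes of the later, specific and gelatinase granules, which neutrophils normally make after the GMP stage, also gained more in KO mice. Of 29 tested, 21 were altered with the KO step higher and none with it lower: 15 increased gains and 6 gains in KO mice only. The median difference was 1.23. Fcnb, the ficolin B gene on chromosome 2, stood at 1.31, 0.40 and 0.96 CPM in WT CMP and 1.99, 1.80 and 2.31 CPM in KO CMP. In GMP it reached 11.1, 12.7 and 9.62 CPM in WT mice and 295.5, 581.7 and 314.2 CPM in KO mice. The KO mice lay above the WT mice in both populations, and the difference of steps was 3.90 ± 0.47 (FDR = 3.87e-04). Lcn2, which encodes the iron-siderophore binding lipocalin 2, reached 7.66 to 16.4 CPM in WT GMP and 61.4 to 90.9 CPM in KO GMP, a difference of 3.66 ± 0.29 (FDR = 3.69e-05).

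Camp, the cathelicidin gene, showed how the mice varied within a genotype. It was at 8.27, 1.42 and 3.34 CPM in CMP and 8.30, 1.06 and 2.48 CPM in GMP of WT mice 300, 305 and 309. In KO mice 301, 304 and 308 it was at 1.64, 1.38 and 2.34 CPM in CMP and 8.12, 41.6 and 11.96 CPM in GMP. The levels of the genotypes overlapped in both populations, WT mouse 300 being high in both and KO mouse 304 high in GMP, whereas the steps did not overlap. The difference was 3.44 ± 0.59 (FDR = 0.00292), and 3.63 (FDR = 0.00449) without WT mouse 300. Chil3, a chitinase-like protein gene, and S100a8, a calprotectin subunit gene, had differences of 3.77 ± 0.46 (FDR = 4.16e-04) and 3.38 ± 0.64 (FDR = 0.00512). The integrin subunit gene Itgb2l had the largest difference among the altered members of the list, 4.52 ± 0.69 (FDR = 0.00146), at 6.61 to 11.1 CPM in KO GMP and 1.59 CPM or less in the other 3 groups. Ltf, which encodes the specific granule protein lactoferrin, was not called (0.20 ± 0.33, FDR = 0.782), and it was lower in KO than in WT mice in CMP (-2.44, FDR = 0.00884) and in GMP (-2.11, FDR = 0.0313). Mmp8, Mmp9, Ly6g, Cxcr2 and Retnlg were not called either. Summed over 8 late neutrophil markers, which these genes share in part, the level was 67.7 FPKM in CMP and 85.7 FPKM in GMP of WT mouse 300, and at most 33.4 and 43.9 FPKM in the other WT mice. In KO mice the sum was 13.7 to 17.0 FPKM in CMP, below every WT mouse, and 114.3 to 227.9 FPKM in GMP, above every WT mouse. Its part in the list's result was not tested. Most of the sum in KO GMP was Lcn2, at 84.4 to 125 FPKM beside 10.6 to 22.4 FPKM in WT GMP. Mmp8 was also higher in KO GMP, and Camp, Ngp and Cxcr2 overlapped. Retnlg was lower in KO GMP, at 1.40 to 3.01 against 11.5 to 12.9 FPKM, as were Ltf and, near 0, Ly6g. Without WT mouse 300, 20 of the list were altered with the KO step higher.

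**Figure D3:**
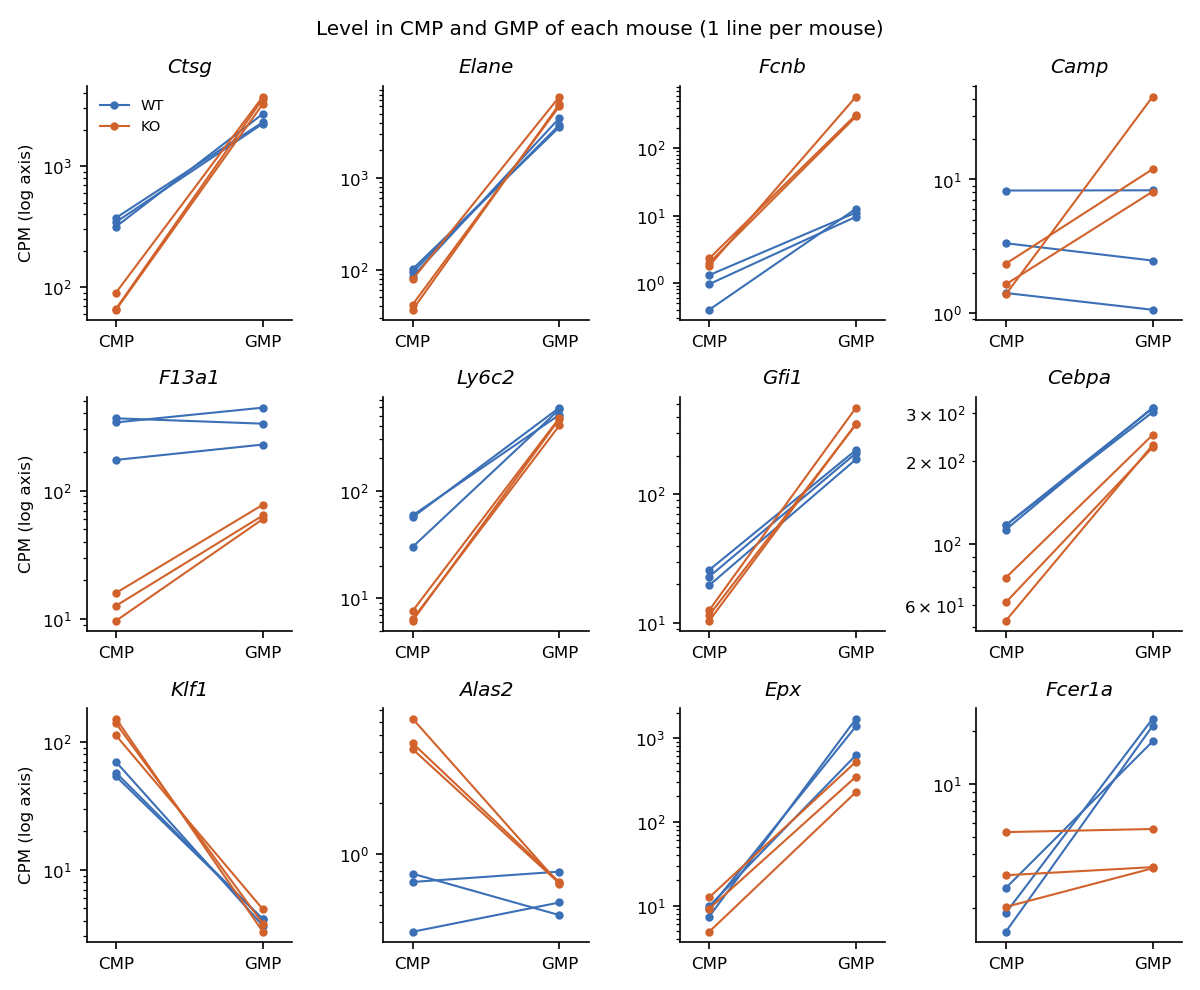
Level in CPM (log axis) of 12 genes in CMP and GMP, 1 line per mouse, WT in blue and KO in orange. Lines of KO mice are steeper than those of WT mice for Ctsg, Elane, Fcnb, F13a1, Ly6c2 and Gfi1, start higher for Klf1 and Alas2, and are flatter for Epx and Fcer1a.

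Transcription factors of myeloid cells were divided. Of 44 tested, 17 were altered with the KO step higher and 5 with it lower. Gfi1, a repressor needed for neutrophil development, was at 25.9, 23.0 and 19.7 CPM in WT CMP and 10.5, 12.6 and 11.6 CPM in KO CMP, and at 221.4, 209.1 and 187.4 CPM in WT GMP and 354.0, 471.5 and 349.9 CPM in KO GMP. KO mice were below WT mice before the step and above them after it, with a difference of 1.90 ± 0.10 (FDR = 7.86e-06). Bhlhe40, a basic helix-loop-helix repressor, reached 4.57 to 5.39 CPM in WT GMP and 27.5 to 38.6 CPM in KO GMP (difference 3.20 ± 0.28, FDR = 6.53e-05). Id2, an inhibitor of such factors, was gained in KO mice only (2.81 ± 0.39, FDR = 8.43e-04), as was the leucine zipper factor gene Nfil3 (1.60 ± 0.24, FDR = 0.00132). Spi1, which encodes PU.1, had a WT step of 0.98 and a KO step of 1.70 (difference 0.72 ± 0.14, FDR = 0.00478), and its level differed between genotypes in GMP (0.60, FDR = 2.11e-04) and not detectably in CMP (-0.12, FDR = 0.521).

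The C/EBP genes differed among themselves in where the genotypes parted. Cebpa, whose product is required to form the GMP, was lower in KO mice in both populations, at 112.9 to 117.2 against 52.5 to 75.4 CPM in CMP and 302.2 to 313.9 against 224.9 to 249.6 CPM in GMP. Its difference of steps, 0.49 ± 0.11 (FDR = 0.0105), fell just short of the limit of 0.5, and it did not pass in a fit that also held the 6 MEP libraries (FDR = 0.103). Cebpb was lower in KO CMP (-1.28, FDR = 0.0105), with a difference of 1.5 ± 0.23 (FDR = 0.00152), and Cebpd was higher in KO GMP (1.21, FDR = 1.09e-04), with a difference of 1.12 ± 0.13 (FDR = 2.88e-04). Cebpe, which acts late in granulocytes, had a difference of 0.81 ± 0.24 (FDR = 0.0435) with steps that overlapped between genotypes, and its call was lost without WT mouse 300 (0.62, FDR = 0.137), WT mouse 309 (0.68, FDR = 0.155), KO mouse 301 (0.69, FDR = 0.15) or KO mouse 308 (0.84, FDR = 0.101). Among the factors with the lower KO step was Rxra, a retinoid receptor, at 6.85 to 8.72 CPM in WT GMP and 1.45 to 2.01 CPM in KO GMP (difference -1.38 ± 0.24, FDR = 0.00331). The retinoic acid and vitamin D receptor genes Rara and Vdr had differences of -1.05 and -1.29. Runx1 was lower in KO mice by about the same amount in CMP (-0.60, FDR = 0.00103) and in GMP (-0.64, FDR = 7.48e-05), and its steps were not called different (-0.05 ± 0.10, FDR = 0.831).

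Among genes of monocytes and macrophages, 12 of 30 were altered with the KO step higher and 2 with it lower, with a median difference of 0.46. The median KO minus WT difference of the list was -0.51 in CMP and -0.15 in GMP, so it was negative in both populations. F13a1 encodes the A chain of coagulation factor XIII and marks monocytes. It was at 173.4, 339.6 and 365.5 CPM in WT CMP and 9.71, 16.0 and 12.7 CPM in KO CMP, and at 228.3, 442.3 and 331.9 CPM in WT GMP and 60.1, 77.6 and 64.1 CPM in KO GMP. KO mice were below WT mice throughout, and their step of 2.41 stood beside a WT step of 0.21 (difference 2.20 ± 0.15, FDR = 2.43e-05). Ly6c2, a surface antigen gene with close family members, was also lower in KO CMP (-2.86, FDR = 1.59e-04), at 6.18 to 7.62 CPM against 30.0 to 58.9 CPM. Its difference of steps was 2.48 ± 0.25 (FDR = 1.27e-04), and that of Cd14, the lipopolysaccharide co-receptor gene, 2.09 ± 0.50 (FDR = 0.0175). Cd14 was near the floor in KO CMP, at 0.02 to 0.11 CPM against 0.40 to 0.87 CPM in WT CMP. It was lower in KO GMP too (-0.77, FDR = 0.0712). Irf8, a factor of monocyte and dendritic cell development, was lower in KO mice in CMP (-1.45, FDR = 0.00775) and in GMP (-1.37, FDR = 0.00396) while its steps were not called different (0.03 ± 0.19, FDR = 0.946). The summed monocyte markers given above, which hold F13a1 and Ly6c2, moved in the same direction as F13a1 in CMP and in GMP. As F13a1 is part of that sum, the shared direction is no separate observation. The part of the sum in its step was not tested. Il6ra, the interleukin-6 receptor gene, was gained in KO mice only (0.89 ± 0.15, FDR = 0.00304), from 26.8 to 34.8 CPM in CMP to 62.9 to 70.4 CPM in GMP.

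**Figure D4:**
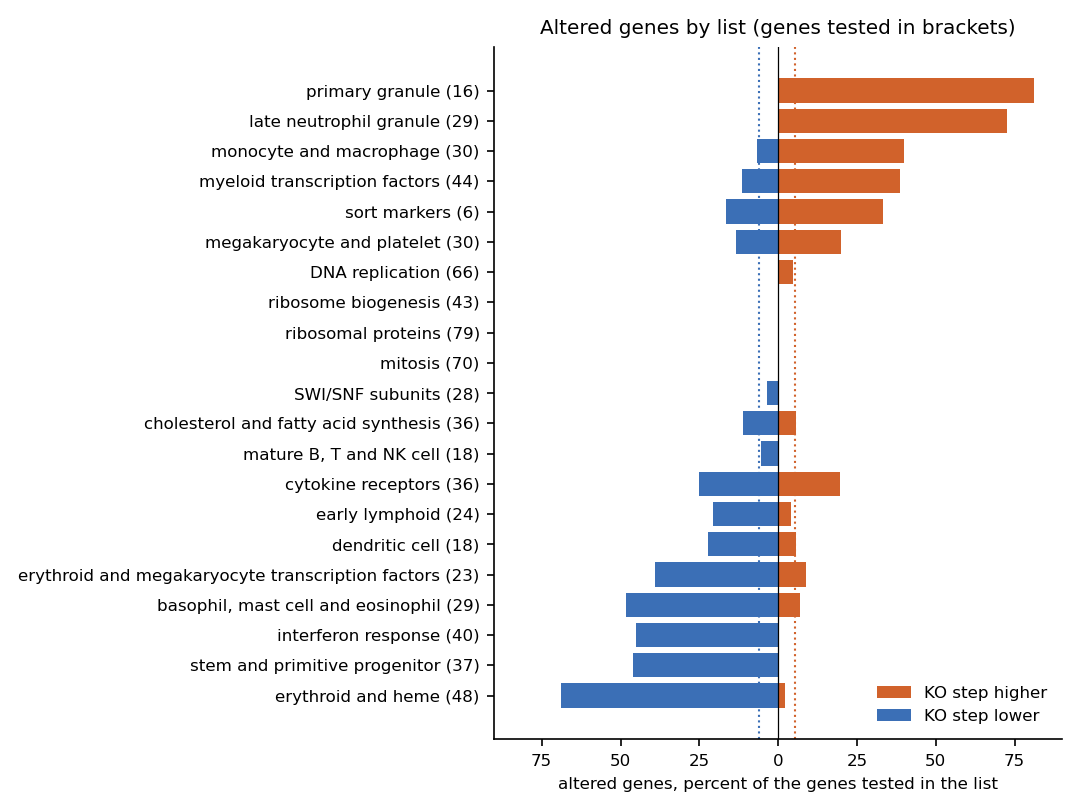
Altered genes in each of 21 gene lists as a percent of the members tested (number in brackets), with the KO step higher to the right and lower to the left. Dotted lines mark 5.19% and 6.13%, the shares over all genes tested. The granule lists lie furthest to the right and the erythroid and heme list furthest to the left.

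Erythroid genes were lost more steeply in KO mice, being higher than in WT mice in CMP and near the WT level in GMP. Of 48 genes of the erythroid and heme list, 33 were altered with the KO step lower and 1 with it higher, comprising 24 increased losses and 9 losses in KO mice only. The median KO minus WT difference was 1.21 in CMP and 0.26 in GMP, and the median difference of steps -0.96. Alas2 encodes the erythroid form of the first enzyme of heme synthesis and lies on the X chromosome. It was at 0.69, 0.77 and 0.35 CPM in WT CMP and 4.49, 6.27 and 4.15 CPM in KO CMP, and at 0.79, 0.44 and 0.52 CPM in WT GMP and 0.68, 0.67 and 0.67 CPM in KO GMP. KO mice lay above WT mice in CMP alone, with a difference of steps of -2.82 ± 0.40 (FDR = 9.40e-04). Hba-a1, an alpha globin gene, was at 3.75 to 10.9 CPM in WT CMP and 42.7 to 70.4 CPM in KO CMP (difference -2.33 ± 0.49, FDR = 0.00878). Hbb-bs, a beta globin gene, had a difference of -2.31 ± 0.60 (FDR = 0.0257), with steps that overlapped between genotypes. The summed erythroid markers of CMP given above, which hold Alas2, Hba-a1 and Klf1, moved with these genes, and their part was not tested. Both globins have a near-identical copy that can share reads, so their levels are uncertain. Trim10, a gene switched on late in red cell formation, had a difference of -2.50 ± 0.66 (FDR = 0.0262), and was not called without WT mouse 300 (-1.64, FDR = 0.203).

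The promoter of Alas2 is shown for its GATA and KLF letters, in the window chrX:150547167-150547466, with the marks used above.
Alas2: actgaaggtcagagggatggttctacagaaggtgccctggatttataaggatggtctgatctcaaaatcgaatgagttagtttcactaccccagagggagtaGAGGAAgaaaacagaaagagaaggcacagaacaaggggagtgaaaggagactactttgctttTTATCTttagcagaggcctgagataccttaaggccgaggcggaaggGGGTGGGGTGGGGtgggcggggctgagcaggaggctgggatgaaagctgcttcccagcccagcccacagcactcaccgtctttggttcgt
The GATA letters begin at position -86, the PU.1 letters at -148, and the 2 KLF matches, at -40 and -35, overlap. AGATAA was present in 7.13% of all matched promoters, in 10.8% of increased losses and in 7.11% of increased gains, and CCNCACCC in 19.6%, 24.1% and 18.6%.

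Of 23 erythroid and megakaryocyte transcription factors, 9 were altered with the KO step lower and 2 with it higher. Klf1, the erythroid Krüppel-like factor gene, was at 57.5, 69.9 and 53.9 CPM in WT CMP and 140.0, 152.7 and 112.8 CPM in KO CMP, and at 3.64 to 4.11 CPM in WT and 3.27 to 4.90 CPM in KO GMP. The genotypes were apart in CMP and overlapped in GMP, and the difference of steps was -1.15 ± 0.24 (FDR = 0.00793). Epor, the erythropoietin receptor gene, took the same form, higher in KO CMP (1.25, FDR = 2.48e-04) and not called in GMP (0.36, FDR = 0.279). Klf3, a repressor that KLF1 activates, crossed over: it was higher in KO CMP (1.04, FDR = 8.53e-05) and lower in KO GMP (-0.34, FDR = 0.00658), with a difference of -1.38 ± 0.12 (FDR = 5.01e-05).

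The GATA genes were lower in KO GMP, where Klf1 overlapped. Gata2, active in stem cells, mast cells and early progenitors, was lower in KO mice both before the step, at 322.9 to 391.2 against 209.5 to 227.6 CPM, and after it, at 123.6 to 157.0 against 40.7 to 48.3 CPM, with a difference of -1.01 ± 0.13 (FDR = 4.37e-04). Gata1, the erythroid and megakaryocytic factor, was higher in KO CMP (0.35, FDR = 0.0814) and lower in KO GMP (-0.90, FDR = 5.46e-04) and had a difference of -1.26 ± 0.14 (FDR = 2.19e-04). Gfi1b, the erythroid relative of Gfi1, and Sox6, a cofactor of globin silencing, had differences of -1.14 ± 0.19 (FDR = 0.0027) and -1.29 ± 0.16 (FDR = 3.71e-04). E2f2, a cell cycle factor of erythroblasts, lost its normal loss. WT mice went from 35.1 to 40.0 CPM in CMP to 16.9 to 18.3 CPM in GMP, and KO mice from 50.6 to 60.6 CPM to 52.1 to 67.9 CPM (difference 1.19 ± 0.09, FDR = 3.20e-05).

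Genes of stem and primitive progenitors were turned down further in KO mice. Of 37 tested, none was altered with the KO step higher and 17 with it lower, 13 of them as increased losses, and the median difference was -0.52. Ikzf2, which encodes the zinc finger factor Helios, was at 67.2, 48.9 and 52.6 CPM in WT CMP and 45.8, 46.1 and 41.3 CPM in KO CMP. In GMP it was at 55.0, 47.7 and 50.2 CPM in WT mice and 13.9, 13.8 and 12.5 CPM in KO mice. The loss was seen in KO mice only (difference -1.59 ± 0.10, FDR = 1.57e-05). Mllt3, a gene of stem cell maintenance, was higher in KO CMP (0.91, FDR = 5.01e-04) and lower in KO GMP (-0.50, FDR = 0.0293), with a difference of -1.40 ± 0.11 (FDR = 3.20e-05). Eya2, a transcriptional co-activator, had a difference of -1.64 ± 0.27 (FDR = 0.00243), and Ly6a, the Sca-1 gene and a sort marker, one of -1.78 ± 0.34 (FDR = 0.0051) at 3.61 CPM or less in every library. Flt3, the receptor of early lymphoid and dendritic progenitors, was at 168.4 to 212.4 CPM in WT CMP and 286.9 to 438.7 CPM in KO CMP and overlapped between genotypes in GMP. Its difference of -1.11 ± 0.11 (FDR = 9.49e-05), like that of the stem cell factor gene Hlf (-0.73 ± 0.12, FDR = 0.002), was not called in the fit with the MEP libraries (FDR = 0.17 and 0.109).

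Early lymphoid genes and dendritic cell genes followed where they were called. Of 24 early lymphoid genes, 5 were altered with the KO step lower and 1 with it higher. Rag2, which encodes a subunit of the V(D)J recombinase, was at 2.53, 2.45 and 3.12 CPM in WT CMP and 15.3, 12.8 and 22.5 CPM in KO CMP, and at 2.19 to 3.53 CPM in WT and 2.28 to 2.77 CPM in KO GMP. Only in CMP did the KO mice stand above the WT mice (difference -2.86 ± 0.21, FDR = 2.60e-05). Il7r, the interleukin-7 receptor gene, was likewise higher in KO CMP (3.14, FDR = 9.45e-04), with a difference of -2.22 ± 0.44 (FDR = 0.00619). Satb1, a chromatin organiser, was lower in KO GMP (-1.31, FDR = 0.00109), with a difference of -1.49 ± 0.14 (FDR = 8.12e-05). Dntt, the terminal transferase gene, had a difference of -2.31 ± 0.32 (FDR = 7.88e-04), not called in the fit with the MEP libraries (FDR = 0.167). Of 18 dendritic cell genes 4 were altered with the KO step lower and 1 with it higher, and the median KO minus WT difference was -0.24 in CMP and -0.70 in GMP. The sum of 7 dendritic cell markers was lower in KO mice without overlap, at 21.6 to 28.6 against 43.6 to 76.6 FPKM in CMP and 14.8 to 16.8 against 34.8 to 70.2 FPKM in GMP, and its part was not tested. It was mostly H2-Ab1, H2-Aa and Cd74, and Siglech overlapped between genotypes in both populations. Itgax, which encodes CD11c, went the other way from that sum in CMP, at 3.98 to 6.48 CPM in WT CMP and 28.4 to 76.2 CPM in KO CMP (difference -1.49 ± 0.18, FDR = 4.33e-04), a call that was lost without the mouse block (FDR = 0.168). Zbtb46, a factor of conventional dendritic cells, had a difference of -1.34 ± 0.28 (FDR = 0.00851).

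Interferon-response genes were lost more in KO mice. None of 40 was altered with the KO step higher and 18 with it lower, and the median KO minus WT difference was 0.71 in CMP and 0.21 in GMP. Usp18, which removes ISG15 from proteins, was at 4.27, 9.43 and 3.84 CPM in WT CMP and 11.97, 16.2 and 12.7 CPM in KO CMP, and at 1.61 to 2.71 CPM in WT and 1.42 to 2.58 CPM in KO GMP. WT mouse 305 was the highest of the WT mice in CMP but stayed below the KO mice, and the difference of steps was -1.44 ± 0.24 (FDR = 0.00234). Ifi44 had a difference of -2.38 ± 0.29 (FDR = 4.11e-04), and Ifi203, a member of a gene family with close copies, one of -1.41 ± 0.10 (FDR = 2.67e-05). Oas2, a sensor of double-stranded RNA, had one of -1.34 ± 0.31 (FDR = 0.0132), not called without the mouse block (FDR = 0.411). Without that block 9 of the 40 were altered.

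Genes of eosinophils, basophils and mast cells gained less in KO mice. The list held 10 of the 66 gains that were lost or blunted. Of its 29 genes, 22 were gained by WT mice and 18 by KO mice. With the KO step lower, 14 were altered, among them 4 gains that were lost, 6 that were blunted and 1 that was reversed, and 2 were altered with the KO step higher. The median difference was -0.81, with a median KO minus WT difference of -0.48 in CMP and -1.53 in GMP. Fcer1a, the ligand-binding chain of the high-affinity IgE receptor of basophils and mast cells, lies on chromosome 1. It rose from 2.58, 1.87 and 1.46 CPM to 17.4, 23.4 and 21.3 CPM in WT mice. In KO mice it was at 3.05, 5.34 and 2.02 CPM in CMP and 3.39, 5.57 and 3.34 CPM in GMP. All KO mice were below all WT mice in GMP, and the WT step of 3.39 stood beside a KO step of 0.29 (difference -3.10 ± 0.29, FDR = 9.21e-05).

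Epx, the eosinophil peroxidase gene, kept a large gain at a lower level. It rose from 9.85, 7.40 and 9.18 CPM to 623.8, 1695 and 1377 CPM in WT mice and from 4.87, 12.5 and 9.17 CPM to 226.0, 519.7 and 345.3 CPM in KO mice. The GMP groups did not overlap, and the steps were 7.01 and 5.37 (difference -1.64 ± 0.37, FDR = 0.0121). Prg2, the major basic protein gene, was similar (-1.47 ± 0.39, FDR = 0.0262), and Cpa3, a mast cell carboxypeptidase gene, had a difference of -0.73 ± 0.13 (FDR = 0.00368). Both calls were lost without the mouse block (FDR = 0.107 and 0.551). Csf1, the macrophage growth factor gene, was lower in KO mice in both populations, at 7.0 to 8.30 against 0.94 to 1.57 CPM in CMP and 27.2 to 31.6 against 2.05 to 3.59 CPM in GMP, with steps of 2.0 and 1.23 (difference -0.77 ± 0.15, FDR = 0.00643). The eosinophil and basophil marker sums given above, which hold Epx, Prg2, Cpa3 and Fcer1a, moved with these genes, and their part was not tested apart from them.

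Outside the lists, the gains that were lost, blunted or reversed were led by genes of varied roles. Of the 150 genes in these classes, losses included, 5 were immunoglobulin or T cell receptor segments. Mouse steps did not overlap for 142, which the choice of genes on the difference of steps favoured, beside 32.5% of all genes tested. Zbtb16, a zinc finger factor gene, was at 16.9, 9.93 and 12.8 CPM in WT CMP and 38.1, 35.4 and 38.9 CPM in WT GMP, beside 30.9, 34.2 and 29.3 CPM and 30.5, 27.8 and 30.4 CPM in KO mice. It thus already stood near the WT GMP level in KO CMP (difference -1.62 ± 0.16, FDR = 1.36e-04). Ypel2 (-1.69 ± 0.19, FDR = 2.24e-04) and St14, the matriptase gene (-1.56 ± 0.21, FDR = 7.64e-04), also lost their gain, both being lower in KO GMP (-2.15, FDR = 7.10e-05, and -2.60, FDR = 3.40e-04). Afap1, an actin filament adaptor gene, was blunted and was lower in KO mice in both populations, at 72.1 to 83.9 against 1.44 to 3.10 CPM in GMP (difference -2.02 ± 0.22, FDR = 2.17e-04). Cyp11a1, the side-chain cleavage enzyme of steroid synthesis, which mast cells and basophils can express, was at 11.1 to 15.3 against 1.20 to 2.75 CPM in GMP (difference -1.65 ± 0.39, FDR = 0.0165). Eml5 had a difference of -1.70 ± 0.19 (FDR = 2.33e-04).

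Reversed gains turned into losses in KO mice. Tspan9, a tetraspanin gene on chromosome 6 (127961396 to 128143594, minus strand), rose from 2.09, 2.30 and 1.83 CPM to 12.03, 11.1 and 8.26 CPM in WT mice. In KO mice it went down from 1.06, 0.98 and 0.52 CPM to 0.21, 0.15 and 0.08 CPM. KO mice were below WT mice in both populations, and the steps were 2.33 and -2.54 (difference -4.87 ± 0.28, FDR = 8.27e-06). Diras2, a small GTPase gene, had steps of 1.39 and -1.17 (difference -2.56 ± 0.14, FDR = 7.86e-06). Oaf had steps of 0.59 and -1.95 (-2.54 ± 0.24, FDR = 9.55e-05), and Ablim1, an actin-binding protein gene, of 0.73 and -1.34 (-2.08 ± 0.19, FDR = 7.73e-05). In each of these 4 genes KO mice were further below WT mice in GMP than in CMP. Meg3, an imprinted long non-coding RNA, was reversed from the other side: it was at 0.18 to 0.22 CPM in WT CMP, 0.21 to 0.56 CPM in WT GMP and 0.33 to 0.67 CPM in KO GMP, but at 5.07, 9.15 and 5.32 CPM in KO CMP (difference -4.72 ± 0.41, FDR = 5.83e-05). Its WT gain of 0.87 (FDR = 0.0562) was small in CPM, and the step of WT mouse 300 was 0.12.

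**Figure D5:**
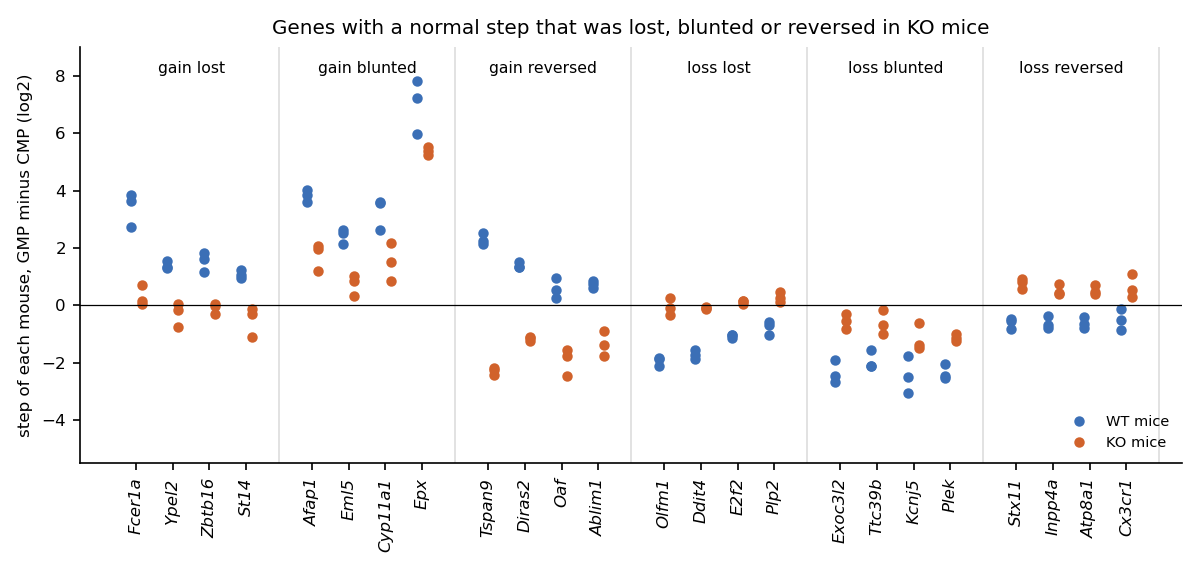
Step of each mouse, GMP minus CMP in log2, for the 4 leading genes of each class in which the normal step was lost, blunted or reversed, with 3 WT mice in blue and 3 KO mice in orange. The mice of the 2 genotypes do not overlap for any of the 24 genes, which was a condition of naming them.

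Losses that were lost, blunted or reversed were fewer, and several belonged to megakaryocytes. Plek, which encodes pleckstrin, the main protein kinase C substrate of platelets, was at 413.8, 285.3 and 387.4 CPM in WT CMP and 164.0, 156.0 and 211.3 CPM in KO CMP, and overlapped in GMP at 49.3 to 94.1 and 70.5 to 89.9 CPM. The lower start left a step of -1.12 in KO beside -2.34 in WT mice (difference 1.22 ± 0.13, FDR = 1.79e-04). Itgb3, the platelet integrin β3 gene, was blunted (0.61 ± 0.13, FDR = 0.00839) and Cd9, a tetraspanin gene of platelets, lost its loss (0.54 ± 0.12, FDR = 0.0134), each with the lower level in KO CMP. Over 30 megakaryocyte and platelet genes, 6 were altered with the KO step higher and 4 with it lower, so that the list did not move one way. Serpine2, a protease inhibitor gene, was altered most among them (2.19 ± 0.15, FDR = 2.43e-05), and Mrvi1 (-1.08 ± 0.21, FDR = 0.00628) and the P-selectin gene Selp (-1.07 ± 0.19, FDR = 0.00339) were not called without the mouse block (FDR = 0.214 and 0.346). Without WT mouse 305, 9 members had the KO step lower.

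Ddit4, a stress-induced inhibitor of mTOR signalling, went from 12.4, 12.4 and 12.04 CPM to 3.38, 4.20 and 3.61 CPM in WT mice, and from 10.4, 11.3 and 9.26 CPM to 9.98, 10.6 and 8.40 CPM in KO mice. Its loss was thus absent in all 3 KO mice (difference 1.63 ± 0.14, FDR = 5.17e-05). The secreted protein gene Olfm1 (1.90 ± 0.20, FDR = 1.46e-04) and the membrane protein gene Plp2 (1.03 ± 0.14, FDR = 6.43e-04) also lost their loss, both with a higher level in KO GMP. Among blunted losses, Exoc3l2 (1.77 ± 0.21, FDR = 3.01e-04) and the potassium channel gene Kcnj5 (1.25 ± 0.35, FDR = 0.0347) started lower in KO CMP, Kcnj5 being lower in KO GMP too (-2.37, FDR = 0.00205), and Ttc39b (1.32 ± 0.23, FDR = 0.00302) was higher in KO mice in both populations. Kcnj5 was not called without the mouse block (FDR = 0.156) or without KO mouse 308 (FDR = 0.171). Of the 5 reversed losses, Cx3cr1, the fractalkine receptor gene of monocytes, was at 15.6, 26.8 and 36.0 CPM in WT CMP and 30.6, 48.0 and 45.8 CPM in KO CMP. In GMP it was at 14.4, 18.8 and 19.8 CPM in WT mice and 65.4, 59.2 and 66.4 CPM in KO mice. The CMP groups overlapped and the GMP groups did not, and the difference was 1.14 ± 0.22 (FDR = 0.00533). The membrane fusion gene Stx11 (1.40 ± 0.14, FDR = 1.22e-04), the phosphatase gene Inpp4a (1.15 ± 0.15, FDR = 5.49e-04) and the lipid flippase gene Atp8a1 (1.14 ± 0.12, FDR = 1.49e-04) were the others named.

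The leading genes of the increased steps, chosen by size of difference, were mostly outside the lists. Mcf2l, a guanine nucleotide exchange factor gene, was at 15.9, 16.5 and 16.3 CPM in WT CMP and 2.31, 3.53 and 2.60 CPM in KO CMP, and at 29.8, 43.5 and 27.1 CPM in WT GMP and 67.9, 107.7 and 76.2 CPM in KO GMP. The genotypes thus changed order across the step (difference 3.88 ± 0.17, FDR = 3.23e-06). Mcemp1, a membrane protein gene of mast cells and granulocytes (3.85 ± 0.29, FDR = 3.20e-05), and Cd300lf, an inhibitory receptor gene of myeloid cells (3.94 ± 0.35, FDR = 6.53e-05), rose in KO GMP to 31.1 to 42.5 CPM and 14.3 to 27.8 CPM, beside 5.81 to 7.29 CPM and 0.85 to 0.91 CPM in WT GMP. Lin28a, which blocks let-7 microRNA processing, reached 8.49 to 17.3 CPM in KO GMP and 1.58 to 2.56 CPM in WT GMP (difference 3.92 ± 0.92, FDR = 0.0152), and was not called with an offset for transcript length (FDR = 0.187). Sept5 (4.11 ± 0.28, FDR = 2.15e-05) shares 1902 exon bases with Gp1bb on the same strand, so its reads can be split between both genes. Among the increased losses, Scd1, a fatty acid desaturase gene, was at 0.45 to 1.37 CPM in WT CMP and 5.77 to 32.8 CPM in KO CMP (difference -3.57 ± 0.76, FDR = 0.00899), a call lost without the mouse block (FDR = 0.118) and with the MEP libraries (FDR = 0.122). Pla2g4c (-3.34 ± 0.26, FDR = 3.20e-05), the endothelial protein gene Plvap (-3.24 ± 0.30, FDR = 7.73e-05) and the protease gene Hpn (-3.23 ± 0.35, FDR = 2.00e-04) followed. The losses seen in KO mice only were led by Rag2, the B cell surface gene Cd72 (-2.56 ± 0.14, FDR = 8.27e-06) and the adhesion gene Parvb (-2.41 ± 0.20, FDR = 3.99e-05).

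Housekeeping lists held few altered genes, and metabolic and receptor lists were divided. Of 66 DNA replication genes 11 passed the FDR with the KO step higher and none with it lower (21 and 0 at an unadjusted p under 0.05). Of these 3 were altered, among them Rrm2, a subunit of ribonucleotide reductase (0.73 ± 0.11, FDR = 0.00122), and Cdc45, part of the replicative helicase (0.55 ± 0.09, FDR = 0.00201). Of 70 mitosis genes none was altered by edgeR or DESeq2, although 24 had a higher KO step at an unadjusted p under 0.05 and 16 passed the FDR below the limit of 0.5, none with the lower step. Over all genes tested, 5.19% were altered with the KO step higher and 9.7% passed the FDR with it higher. Both the replication and the mitosis list exceeded the latter share. At an unadjusted p under 0.05 there were 4769 of all 18034 genes, in either direction. None of 79 ribosomal protein genes and none of 43 ribosome biogenesis genes was altered by either tool, with 1 and 3 genes at an unadjusted p under 0.05. Of 36 cholesterol and fatty acid genes, 2 were altered with the KO step higher and 4 with it lower. Fdps, the farnesyl diphosphate synthase gene, was at 92.2, 94.5 and 98.2 CPM in WT GMP and 201.0, 199.5 and 202.8 CPM in KO GMP (difference 1.13 ± 0.12, FDR = 1.98e-04). Fads2, a fatty acid desaturase gene, was at 13.9 to 17.6 CPM in WT GMP and 4.58 to 4.96 CPM in KO GMP (difference -1.68 ± 0.13, FDR = 3.65e-05). For both genes the genotypes were apart in GMP and overlapped in CMP.

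Among 36 cytokine receptor genes, 7 were altered with the KO step higher and 9 with it lower. Il10ra, the interleukin-10 receptor chain gene, was higher in KO CMP (0.61, FDR = 0.0474) and lower in KO GMP (-1.53, FDR = 0.00207). It was at 5.41, 8.86 and 8.66 CPM in WT GMP and 2.25, 2.21 and 3.50 CPM in KO GMP (difference -2.15 ± 0.14, FDR = 1.67e-05). Il18r1, the interleukin-18 receptor gene, was higher in KO CMP (2.64, FDR = 3.53e-04) and not called in GMP (0.52, FDR = 0.332), with a difference of -2.09 ± 0.32 (FDR = 0.00161). Of 28 SWI/SNF subunit genes, Dpf3, which encodes a histone-reading subunit, was altered (-1.87 ± 0.26, FDR = 8.47e-04), at 1.19 to 1.79 CPM in WT GMP and 0.47 to 0.63 CPM in KO GMP. Of 18 genes of mature B, T and NK cells 1 was altered. Among the 68 altered genes with no step called, Rcbtb2 had steps of -0.47 and 0.42 (difference 0.89 ± 0.12, FDR = 5.77e-04) and the endosomal gene Rab11fip1 of -0.48 and 0.27 (0.75 ± 0.16, FDR = 0.00876). Fcgr2b, the other receptor of the gate, had a difference of 0.32 ± 0.10 (FDR = 0.0464), below the limit of 0.5, and was not called without KO mouse 304 or 308 or WT mouse 305 or 309 (FDR = 0.112 to 0.232).

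Exons of several named genes overlap those of another expressed gene on the opposite strand: Alas2 with Apex2, Cd72 with Tesk1, Cdc45 with Ufd1, Cebpb with Tmem189, Cebpd with Spidr, Eml5 with Zc3h14, Rag2 with B230118H07Rik and Rcbtb2 with Rb1. Ifi203 overlaps Mndal on the same strand. The strand setting of the libraries was not stated in the sources used here, so reads of such pairs cannot be told apart in the overlap.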

How the data were processed

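RNA of sorted CMP and GMP from 3 WT and 3 KO C57BL/6 mice was made into poly-A libraries by the authors. They quantified transcripts with kallisto on mm10, per the submitters' processing notes, which also name DESeq2, and deposited estimated counts per transcript with effective lengths. Of 115088 transcripts 114200 (99.2%) were paired with a gene of GENCODE annotation on GRCm38, and the deposited estimated counts of its transcripts were added up for each gene, to the nearest whole number. The totals were 42575900 to 60789922 (median 53042241) per library, and FPKM were computed here from counts and effective lengths.

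Steps and their difference were tested with edgeR 4.0.16 in R 4.3.3 (TMM scaling, filterByExpr, quasi-likelihood test, mouse as a block, 4 residual degrees of freedom), with Benjamini-Hochberg adjustment over 18034 genes. KO and WT mice were compared within each population in fits of 6 libraries. The steps per mouse used log2 CPM with a prior count of 2. The WT step, the KO step and their difference share libraries. A class is read from both steps: a normal gain or loss is increased, blunted (still called), lost (no longer called) or reversed in KO mice. The procedure was tested on simulated data. Within a genotype, the labels tell the mice apart only by their numbers, and p-values rest on the spread between them.

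The genes named were, per class, the 4 protein-coding genes of largest difference whose mouse steps did not overlap and whose highest group mean reached 10 CPM, leaving out immunoglobulin and T cell receptor segments and clone or model names, then the 4 most altered members of each list with members whose role is described, the sort markers, Arid1a and genes the study names. The gene lists, the rule and the comparison were chosen with earlier results of these data known. CMP and GMP of the same mouse deviated together weakly in mice 304, 305, 308 and 309 (r = 0.25 to 0.33) and hardly in mice 300 and 301 (r = 0.06 and 0.02). WT and KO mice whose columns stand side by side in the study's table (300 and 301, 305 and 304, 309 and 308) had steps that deviated together (r = 0.29, 0.16 and 0.20, against -0.21 to 0.06 for other pairs), and this pairing was used as a replicate block in an alternative. Other alternatives were median-of-ratios scaling, no low-count filter, an offset for transcript length, DESeq2 1.42.0, no mouse block, a fit with the 6 MEP libraries, a test against a difference of 0.5, classes from the mean step, and leaving out each mouse.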

Additional observations from a re-analysis of the deposited data

Results flagged for a closer look

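The step from CMP to GMP differed between the genotypes, by the test of the difference itself, for 2042 altered genes. Among those named, 10 had fitted steps of opposite sign in WT and KO mice, both called. A gain in WT and a loss in KO mice was seen for Tspan9 (difference of steps -4.87), Meg3 (-4.72), Il6 (-3.58), Diras2 (-2.56), Oaf (-2.54) and Ablim1 (-2.08). Il6, the interleukin-6 gene, was at 0.53 to 1.08 CPM in WT CMP and 1.03 to 1.86 CPM in WT GMP. In KO mice it was at 1.06 to 1.97 CPM in CMP and 0.16 to 0.30 CPM in GMP (difference -3.58 ± 0.51, FDR = 9.40e-04). The WT gains of Il6 (0.92, FDR = 0.0523) and Meg3 (0.87, FDR = 0.0562) were weak and at low CPM. In WT mouse 300 the steps of these 2 genes were -0.07 and 0.12. A loss in WT and a gain in KO mice was seen for Stx11 (1.40), Inpp4a (1.15), Atp8a1 (1.14) and Cx3cr1 (1.14).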

How the results depend on the processing

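The count of altered genes, 2042, lay between 1776 and 2204 under the other scaling, filter, length, tool, block and library choices, and 84.1% to 99.7% of the genes altered in the reported fit were altered under each of these. A test against a difference of 0.5 called 998. With gain and loss taken from the mean step, 78 genes had a smaller gain or loss in KO mice, beside 150 lost, blunted or reversed in the reported classes. Leaving out 1 mouse gave 2485 to 3330 genes at an FDR under 0.1, 1776 to 2053 altered genes, 1565 to 1803 increased or in KO mice only, and 144 to 162 lost, blunted or reversed. The replicate block of mouse pairs gave 5403 genes at an FDR under 0.1 and 2204 altered genes, and a fit with no replicate block 1862 altered genes. The share of altered genes with the higher KO step was 45.8%, and 43% to 49.9% under these alternatives. Genes whose steps were not called different changed sign under some: Irf8 to -0.02 with the length offset and to a range of -0.13 to 0.25 over the mice left out, negative without mouse 301 (-0.1), 308 (-0.05) or 309. Over the mice left out, Runx1 ranged from -0.11 to 0.01, the latter without mouse 305 or 308, and Ltf from -0.18, without mouse 308, to 0.56. With the length offset Runx1 was at -0.24. The cause was not tested. With 3 mice per genotype, genes at low CPM, such as Itgb2l or Trim10, carried standard errors above 0.6.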
